A study of Zea mays with 6 samples.

Results

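Transcript levels of 8 genes of jasmonate synthesis were read from 6 RNA sequencing libraries of mature maize anthers (Zea mays, line B104), 3 from plants labelled ZmCOI2a-/- ZmCOI2b-/- and 3 from wild type. The mutant plants are labelled homozygous for both genes, in the same inbred line as the wild type, and the labels do not describe the lesions. Nor do they tell whether the 3 libraries come from different plants, so each p-value measures the spread between these libraries, which may be partly technical. The title of the series places the COI2 genes in anther opening and male fertility, and the comparison asks whether anthers that lack them carry different amounts of transcript for the enzymes that make the hormone. The 8 genes were chosen by identifier, out of 31470 listed: 2 for each of 4 enzyme steps. They are ts1 (also called LOX8) and LOX10 for the lipoxygenase step, Zm00001d034184 and Zm00001d034186 for allene oxide synthase, Zm00001d029594 and Zm00001d047340 for allene oxide cyclase, and OPR7 and OPR8 for the reductase of 12-oxophytodienoate. The files hold identifiers without names, so these names are those given to the identifiers when the genes were chosen. For the same reason neither the genotype labels nor the tissue label could be checked here on named transcripts.

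Jasmonate is made from linolenic acid of plastid membranes. A 13-lipoxygenase adds oxygen to the fatty acid, allene oxide synthase turns the hydroperoxide into an unstable allene oxide, and allene oxide cyclase closes its ring to give 12-oxophytodienoate. That intermediate moves to the peroxisome, where a reductase of the OPR family and rounds of beta-oxidation yield jasmonate. COI proteins are the F-box part of the jasmonate receptor, which marks JAZ repressors for destruction. In Arabidopsis, loss of the pathway or of COI1 leaves anthers that do not open, and jasmonate raises transcripts of its own synthesis enzymes through COI1. In maize, ts1 and the pair OPR7 and OPR8 are known for the sex of tassel flowers.

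Transcripts of all 4 steps were present in both genotypes, and their levels were far apart. Levels are given in FPKM, fragments per kilobase of counted gene length and scaled to the reads counted in the library. The 2 cyclases together had 62.2 ± 10.8 FPKM in the mutant, against 71.2 ± 17.3 FPKM in wild type (SD, n = 3 each), and the 2 reductases 62.9 ± 3.7 FPKM in the mutant, against 59.9 ± 4.1 FPKM in wild type. The 2 lipoxygenases together had 7.65 ± 0.90 FPKM in the mutant, against 8.27 ± 5.39 FPKM in wild type. The 2 synthases were lowest, with 2.35 ± 0.30 FPKM in the mutant, against 2.42 ± 0.49 FPKM in wild type. The cyclases held 45.8 ± 3.0% of the summed FPKM of the 8 genes in the mutant, against 49.9 ± 2.5% in wild type, and the synthases 1.75 ± 0.25% in the mutant, against 1.71 ± 0.05% in wild type. The sums of the cyclases, of the lipoxygenases, of the synthases and of all 8 genes were lower in the mutant as deposited. Each was higher in the mutant with median-of-ratios or upper-quartile scaling and without wild-type replicate 3. These sums cover the 8 genes alone. A RefSeq gene table of a newer maize assembly lists 3 genes with synthase symbols, none paired with an identifier of these files, so synthase genes outside the pair are not analysed here. The same holds for the rest of the pathway: of 23 symbols sought for lipoxygenases, synthases, cyclases, reductases and related enzymes, the table listed 14 and paired 0 with an identifier of the files.

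**Figure D1:**
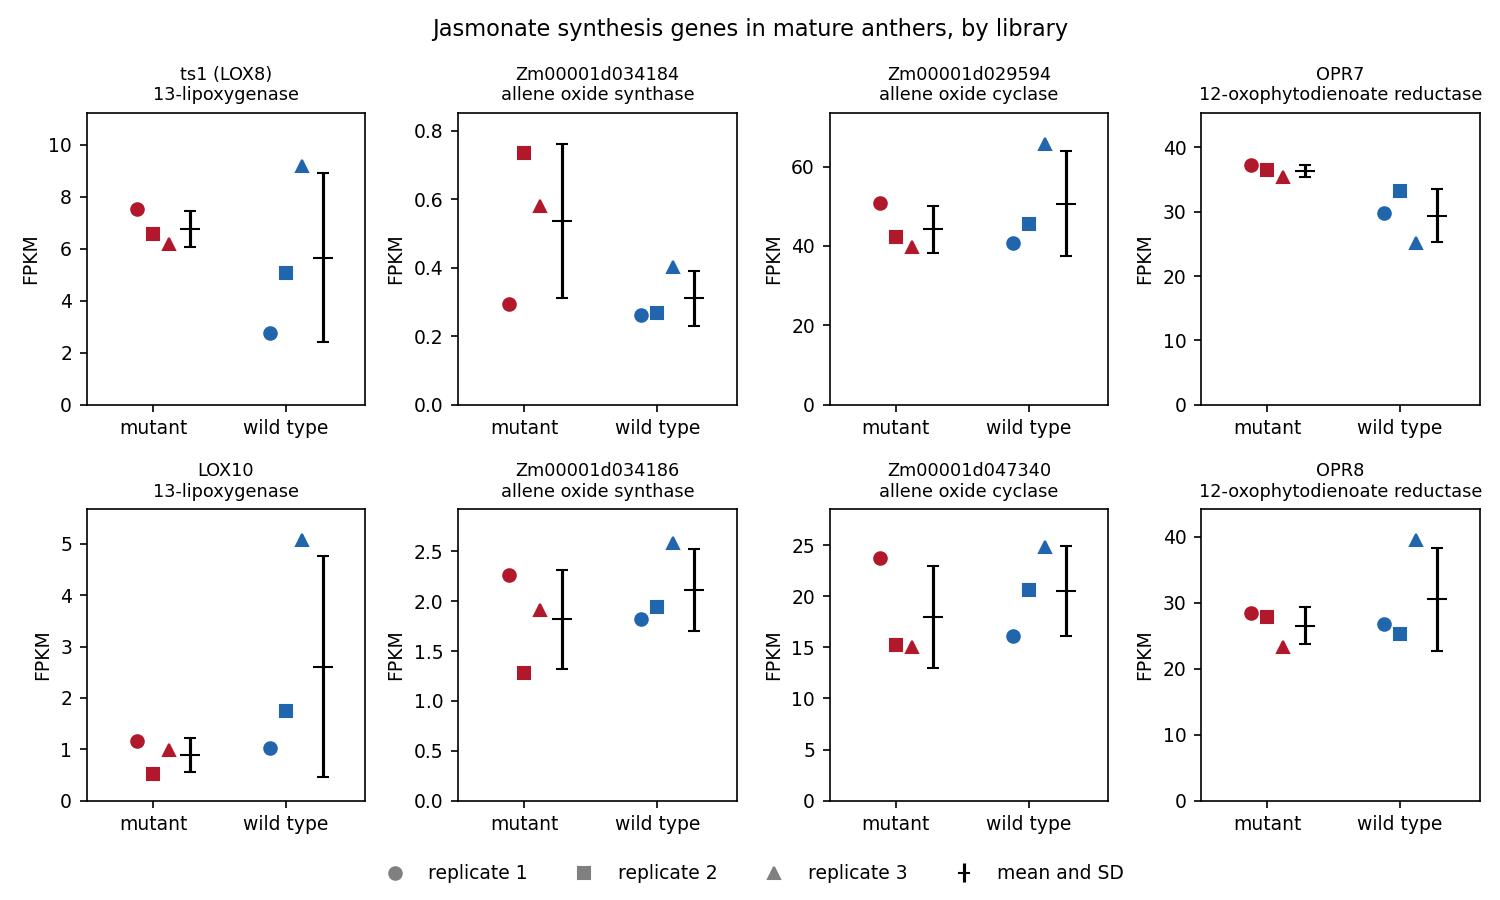
FPKM of the 8 genes in each library, in panels of their own with axes from 0. Red points are the ZmCOI2a-/- ZmCOI2b-/- libraries and blue points wild type, marker shapes give the replicate number, and black bars give the mean and SD of 3 libraries. The genotypes overlap in each panel except that of OPR7. With FPKM as deposited, wild-type replicate 3 is the highest library in 6 of the 8 panels.

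In the mutant the order from high to low was cyclase Zm00001d029594, OPR7, OPR8, cyclase Zm00001d047340, ts1, synthase Zm00001d034186, LOX10 and synthase Zm00001d034184. By the wild-type means OPR8 and OPR7 changed places, as did LOX10 and synthase Zm00001d034186. Both changes came from wild-type replicate 3, and wild-type replicates 1 and 2 kept the mutant order of each pair. Most neighbours in the mutant order did not overlap between libraries, but OPR8 overlapped cyclase Zm00001d047340, and LOX10 overlapped synthase Zm00001d034184. In wild type the ranges of OPR8 and OPR7, of ts1 and LOX10, and of LOX10 and synthase Zm00001d034186 overlapped. Library by library, ts1 was above LOX10 throughout wild type, and OPR8 above cyclase Zm00001d047340 throughout the mutant. LOX10 was below synthase Zm00001d034184 in mutant replicate 2 and above it in mutant replicates 1 and 3. Against all 31470 listed genes, the mean level over the 6 libraries stood at the 93.7 percentile for cyclase Zm00001d029594, the 91.4 for OPR7, the 90.1 for OPR8 and the 86.4 for cyclase Zm00001d047340. It stood at the 70.2 percentile for ts1, the 49.8 for synthase Zm00001d034186, the 48.0 for LOX10 and the 30.1 for synthase Zm00001d034184.

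None of the 7 genes that could be tested was called changed between genotypes. The test was limma on log2(FPKM + 1), two-sided, over the 18984 genes with at least 1 FPKM in at least 3 libraries, with Benjamini-Hochberg adjustment over all of them. It called 0 of the 7 changed, and 0 had an unadjusted p under 0.05, beside 6.65% of all tested genes called and 28.5% with an unadjusted p under 0.05. With so few genes these counts do not set the 7 apart from the rest, and a gene not called may still differ. Limma-voom on whole reads recovered from the FPKM also called 0 of the 7, beside 7.4% of all tested genes. Synthase Zm00001d034184 lay below the filter and was not tested. The median log2 fold change of the 7 genes, mutant over wild type, was -0.17, against -0.20 for all tested genes. That median of all tested genes depended on the scaling of the libraries: it was -0.20 with FPKM as deposited and 0.03 with median-of-ratios scaling, so the fold changes of the 7 genes are also given relative to it. RNA of whole anthers cannot tell fewer cells of a type from less RNA per cell.

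**Figure D2:**
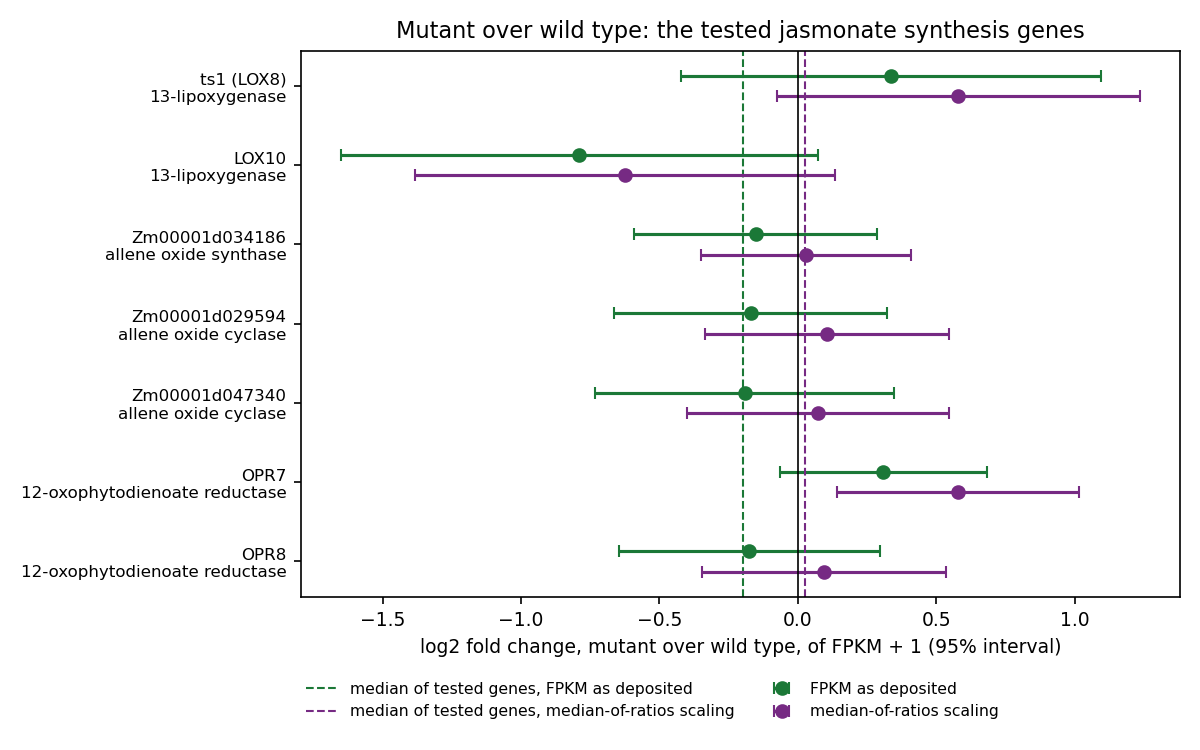
Log2 fold change of FPKM + 1, ZmCOI2a-/- ZmCOI2b-/- over wild type, for the 7 tested genes, with 95% intervals from limma. Green points use FPKM as deposited and purple points median-of-ratios scaling, and dashed lines mark the median of all tested genes under each, at -0.20 and 0.03. With FPKM as deposited each interval includes 0. With median-of-ratios scaling the interval of OPR7 does not, at 0.14 to 1.02, and its adjusted p is 0.117.

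The 13-lipoxygenases make the first oxygenated intermediate of the pathway. ts1 (Zm00001d003533, chromosome 2, 47105187 to 47109372, minus strand, build B73 RefGen_v4) had 7.53, 6.57 and 6.19 FPKM in mutant replicates 1, 2 and 3, and 2.74, 5.05 and 9.18 FPKM in wild-type replicates 1, 2 and 3. These values stand for 411, 358 and 341 reads in the mutant, against 147, 264 and 502 reads in wild type. As deposited, the mutant libraries lay close together, inside the range of the wild-type libraries, whose highest value was 3.35 times the lowest. The log2 fold change of ts1 was 0.34 (SE 0.33, 95% interval -0.42 to 1.10, limma adjusted p = 0.525), or 0.54 above the median of all tested genes. It rested on wild-type libraries: without wild-type replicate 3 it was 0.70 (limma adjusted p = 0.103), and without wild-type replicate 1 it was -0.02 (limma adjusted p = 0.969). With median-of-ratios scaling it was 0.58 (limma adjusted p = 0.259), and with limma-voom and that scaling 0.69 (adjusted p = 0.228). The genotypes also overlapped after median-of-ratios scaling.

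LOX10 is known in maize leaves as the lipoxygenase that feeds the green leaf volatiles. The gene (Zm00001d053675, chromosome 4, 238805319 to 238809230, plus strand) had 1.16, 0.52 and 0.98 FPKM in mutant replicates 1, 2 and 3, and 1.02, 1.74 and 5.07 FPKM in wild-type replicates 1, 2 and 3. The reads were 67, 30 and 57 in the mutant, against 58, 96 and 293 in wild type. Wild-type replicate 3 stood apart from the other 5 libraries, and wild-type replicate 1 lay below mutant replicate 1. The mutant averaged 0.89 ± 0.33 FPKM and wild type 2.61 ± 2.16 FPKM (SD, n = 3 each), a ratio of means of 0.340. The log2 fold change of LOX10 was -0.79 (SE 0.37, 95% interval -1.65 to 0.07, limma adjusted p = 0.207), or 0.59 below the median of all tested genes. The pseudocount of 1 shrinks the change of a gene at this level: with 0.1 in its place the log2 fold change was -1.22, and with limma-voom on the reads it was -1.31 (95% interval -2.65 to 0.04, adjusted p = 0.183). Without wild-type replicate 3 the log2 fold change on the log2(FPKM + 1) scale was -0.33 (limma adjusted p = 0.363), and without wild-type replicate 1 it was -1.13 (limma adjusted p = 0.112).

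The spread of both lipoxygenases among wild-type libraries was wide for this table. The SD of log2(FPKM + 1) over the 3 wild-type libraries was 0.72 for ts1 and 0.82 for LOX10, at the 95.3 and 97.2 percentiles of all tested genes. In the mutant it was 0.13 for ts1 and 0.26 for LOX10, at the 26.6 and 68.4 percentiles.

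The balance between the 2 lipoxygenases, unlike either level, did not overlap between genotypes. How often shares of other gene pairs separate was not tested, and the levels of 35.8% of all tested genes did not overlap between genotypes. ts1 held 86.6, 92.6 and 86.3% of the summed FPKM of the pair in mutant replicates 1, 2 and 3, and 72.8, 74.4 and 64.4% in wild-type replicates 1, 2 and 3. A share within a library does not depend on how libraries are scaled to each other. Put as a ratio, ts1 had 6.48, 12.6 and 6.32 times the FPKM of LOX10 in the mutant libraries, against 2.68, 2.90 and 1.81 times in wild type. The mean share was 88.5 ± 3.6% in the mutant, against 70.5 ± 5.4% in wild type (SD, n = 3 each), a difference of 18.0 percentage points. A two-sided exact permutation test gave p = 0.1, the smallest that 3 against 3 libraries allow, and adjusted p = 0.4 over the 4 pairs compared. The difference was between 14.9 and 19.9 percentage points with any 1 library left out, the lower value without wild-type replicate 3. Counted in reads in place of FPKM it was 18.6 percentage points.

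**Figure D3:**
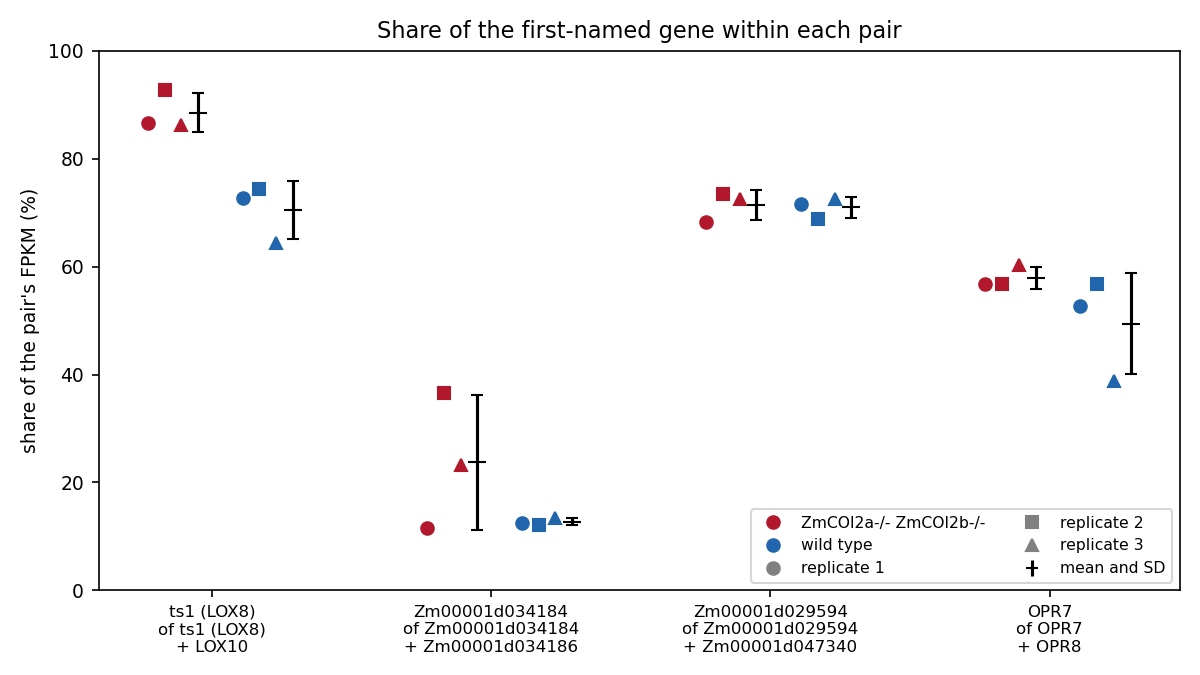
Share of the first-named gene in the summed FPKM of its pair, in percent, for the 4 enzyme steps. Red points are the ZmCOI2a-/- ZmCOI2b-/- libraries and blue points wild type, marker shapes give the replicate number, and black bars the mean and SD of 3 libraries. For ts1 the mutant libraries sit between 86.3 and 92.6% and the wild-type libraries between 64.4 and 74.4%, while the shares of the other pairs overlap between genotypes.

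Allene oxide synthase commits the hydroperoxide to the jasmonate branch. The 2 synthase genes lie next to each other on the minus strand of chromosome 1, 8097 bp apart, with no other listed gene between them. Zm00001d034184 (285946538 to 285948088) was counted over its whole span of 1551 bp, and Zm00001d034186 (285956186 to 285957745) over its whole span of 1560 bp. Their sequences were not compared here, so how far reads could be shared between them was not tested.

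Synthase Zm00001d034186 had 2.26, 1.28 and 1.91 FPKM in mutant replicates 1, 2 and 3, and 1.82, 1.94 and 2.58 FPKM in wild-type replicates 1, 2 and 3. The ranges overlapped, and mutant replicate 2 was the lowest library. Its log2 fold change was -0.15 (SE 0.19, 95% interval -0.59 to 0.29, limma adjusted p = 0.622), or 0.05 above the median of all tested genes. Its sign turned to 0.03 with median-of-ratios scaling, and it was -0.0068 without mutant replicate 2. Its reads numbered 35 to 62 in the mutant libraries, against 49 to 71 in wild type.

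Synthase Zm00001d034184 was barely read, with 8, 20 and 16 reads in mutant replicates 1, 2 and 3, and 7, 7 and 11 reads in wild-type replicates 1, 2 and 3. In FPKM these are 0.29, 0.73 and 0.58 in the mutant, against 0.26, 0.27 and 0.40 in wild type. Mutant replicates 2 and 3 lay above the wild-type libraries, and mutant replicate 1 lay among them. Over each genotype it had 44 reads in the mutant, against 25 in wild type. Corrected for depth the ratio was 1.72, with a 95% interval of 1.03 to 2.94 that covers counting error only. With no filter on low values its log2 fold change was 0.22 (SE 0.12, 95% interval -0.07 to 0.51, limma adjusted p = 0.341), in a fit that called 0.928% of all listed genes. It held 11.5, 36.5 and 23.3% of the FPKM of the synthase pair in the mutant libraries, against 12.6, 12.1 and 13.5% in wild type. The difference in mean share was 11.0 percentage points (two-sided exact permutation p = 0.4, adjusted p = 0.533 over the 4 pairs), and 4.66 without mutant replicate 2.

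Allene oxide cyclase fixes the stereochemistry of the jasmonate precursor. Cyclase Zm00001d029594 (chromosome 1, 78239819 to 78241044, minus strand) had 50.9, 42.2 and 39.6 FPKM in mutant replicates 1, 2 and 3, and 40.8, 45.5 and 65.6 FPKM in wild-type replicates 1, 2 and 3. Cyclase Zm00001d047340 (chromosome 9, 126972983 to 126974226, minus strand) had 23.7, 15.2 and 15.0 FPKM in the mutant libraries, against 16.1, 20.6 and 24.9 FPKM in wild type. For both genes the ranges overlapped widely, with mutant replicate 1 high in the mutant and wild-type replicate 3 high in wild type.

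The log2 fold change was -0.17 for Zm00001d029594 (SE 0.21, 95% interval -0.66 to 0.32, limma adjusted p = 0.624). For Zm00001d047340 it was -0.19 (SE 0.23, 95% interval -0.73 to 0.35, limma adjusted p = 0.613). Relative to the median of all tested genes they stood at 0.03 and 0.01, and with median-of-ratios scaling both signs turned, to 0.10 and 0.07. Zm00001d029594 held 71.4 ± 2.8% of the cyclase FPKM in the mutant, against 71.0 ± 1.9% in wild type (SD, n = 3 each), a difference of 0.38 percentage points (two-sided exact permutation p = 0.7, adjusted p = 0.7 over the 4 pairs). Of the 4 pairs this one kept the narrowest range of shares over the 6 libraries, 68.2 to 73.5%.

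OPR7 and OPR8 encode the reductases whose joint loss leaves maize plants short of jasmonate. OPR7 (Zm00001d032049, chromosome 1, 210749060 to 210752906, minus strand) had 37.2, 36.5 and 35.4 FPKM in mutant replicates 1, 2 and 3, and 29.8, 33.3 and 25.1 FPKM in wild-type replicates 1, 2 and 3. Each mutant library lay above each wild-type library, which made OPR7 the 1 gene of the 8 whose genotypes did not overlap. Of all tested genes, 35.8% did not overlap in either direction, and 7.27% lay higher in the mutant without overlap. The mutant averaged 36.4 ± 0.9 FPKM and wild type 29.4 ± 4.1 FPKM (SD, n = 3 each), 1.24 times as much in the mutant. The 3 mutant values were close, with an SD of log2(FPKM + 1) of 0.04 at the 2.86 percentile of all tested genes.

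The log2 fold change of OPR7 was 0.31 (SE 0.16, 95% interval -0.07 to 0.68, limma adjusted p = 0.250), or 0.51 above the median of all tested genes. It did not pass under any scaling tried. With median-of-ratios scaling it was 0.58 (unadjusted p = 0.0158, limma adjusted p = 0.117) and with upper-quartile scaling 0.52 (unadjusted p = 0.0285, limma adjusted p = 0.156). The values did not overlap under these scalings either, beside 16.7% and 13.7% of all tested genes that lay higher without overlap, and 5.64% and 5.72% that were called in either direction. The adjusted p ran from 0.117 to 0.467 over the 16 other settings tried.

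OPR8 (Zm00001d050107, chromosome 4, 66086547 to 66090296, plus strand) had 28.4, 27.8 and 23.3 FPKM in mutant replicates 1, 2 and 3, and 26.8, 25.3 and 39.5 FPKM in wild-type replicates 1, 2 and 3. The ranges overlapped, and wild-type replicate 3 stood above the rest. Its log2 fold change was -0.18 (SE 0.21, 95% interval -0.65 to 0.30, limma adjusted p = 0.597), or 0.02 above the median of all tested genes, and its sign turned to 0.02 without wild-type replicate 3. It also turned to 0.09 with median-of-ratios scaling and 0.03 with upper-quartile scaling.

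The reductase pair stood apart in 1 wild-type library. OPR7 held 56.8, 56.8 and 60.3% of the pair's FPKM in mutant replicates 1, 2 and 3, and 52.6, 56.8 and 38.9% in wild-type replicates 1, 2 and 3. Wild-type replicate 3 was the lowest library for OPR7 and the highest for OPR8, and the only library where OPR8 was above OPR7 in FPKM. The difference in mean share was 8.51 percentage points (two-sided exact permutation p = 0.3, adjusted p = 0.533 over the 4 pairs), and 3.22 without that library. The levels of the 2 reductases per length rest on counted lengths that differ in kind. OPR7 was counted over 3617 bp, 94.0% of its span, and OPR8 over 1693 bp, 45.1% of its span. In reads OPR7 exceeded OPR8 in all 6 libraries, 2.80, 2.81 and 3.25 times in the mutant, against 2.37, 2.81 and 1.36 times in wild type. The counted length cancels in a ratio of FPKM between genotypes.

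With FPKM as deposited, wild-type replicate 3 recurred across the pathway. It was the highest of the 6 libraries for ts1, LOX10, synthase Zm00001d034186, both cyclases and OPR8, and the lowest for OPR7. Over all tested genes it was the highest library for 41.3% and the lowest for 12.2%. Its median-of-ratios factor, by which FPKM is divided in that scaling, was 1.20, the highest of the 6 libraries. The factors of mutant replicates 1, 2 and 3 were 0.94, 0.86 and 0.93. Which library is highest or lowest can therefore change with scaling, and was not counted after it. Mutant replicate 3 was the lowest library for both cyclases and OPR8, and over all tested genes it was the lowest for 19.7%. Mutant replicate 2 was the lowest for LOX10 and synthase Zm00001d034186, and over all tested genes for 32.9%, the largest share of the 6 libraries. The share of these patterns in the differences between genotypes was not tested beyond leaving out each library and rescaling the libraries.

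**Figure D4:**
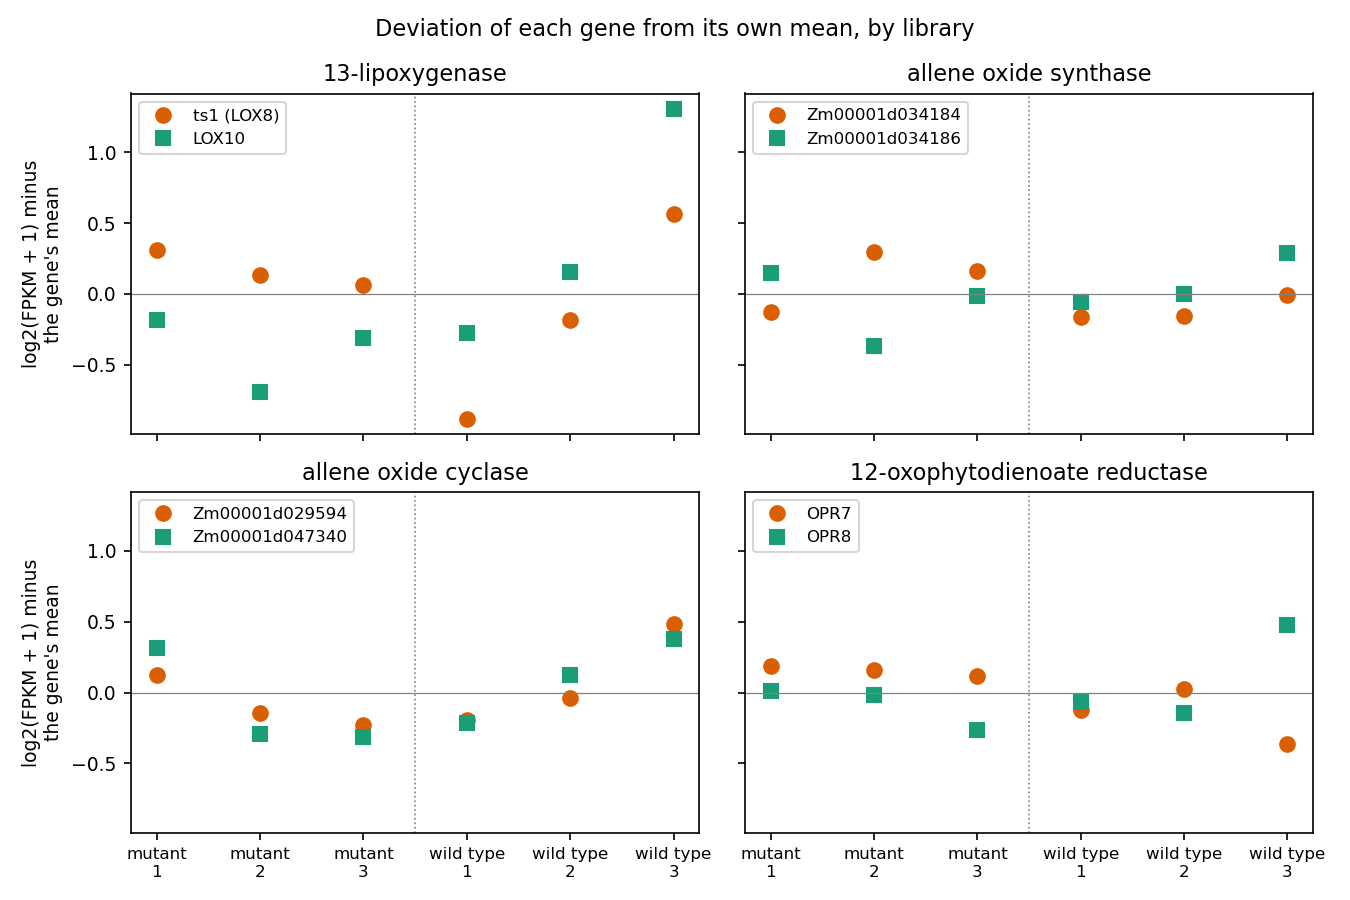
Log2(FPKM + 1) of each gene minus its own mean over the 6 libraries, with mutant libraries left and wild-type libraries right of the dotted line and 1 panel for each enzyme step. With FPKM as deposited, LOX10 reaches its highest value in wild-type replicate 3. There ts1, both cyclases, synthase Zm00001d034186 and OPR8 are also highest, and OPR7 is lowest.

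The intervals give the range of changes, gene by gene, that lay within the spread of these libraries. They are not adjusted for the number of genes tested, and the smallest change the test could call was not computed. The 95% interval of the log2 fold change lay inside -1 to 1 for 5 of the 7 tested genes: synthase Zm00001d034186, both cyclases, OPR7 and OPR8. For ts1 it reached 1.10 and for LOX10 -1.65, so a 2-fold change of these 2 genes, higher for ts1 and lower for LOX10, lay within the spread. These intervals are on the log2(FPKM + 1) scale, which shrinks changes of low genes. With limma-voom on the reads and library totals the interval reached 1.24 for ts1 and -2.65 for LOX10, so larger changes lay within the spread on that scale. With median-of-ratios scaling 4 of the 7 intervals lay inside those bounds, since that of OPR7 reached 1.02.

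For each step, the gene outside the 8 whose profile was most like the summed FPKM of the step was sought among 18977 tested genes. Likeness was the root-mean-square difference between log2(FPKM + 1) profiles, each centred on its own mean over the 6 libraries. It was 0.09 for the lipoxygenases and Zm00001d007973, 0.03 for the synthases and Zm00001d005516, 0.04 for the cyclases and Zm00001d022177, and 0.03 for the reductases and Zm00001d017096. The files do not pair these identifiers with names. Zm00001d007973 (chromosome 2, 244357783 to 244359645) had 2.42, 2.13 and 2.04 FPKM in the mutant libraries, against 1.02, 1.82 and 4.41 FPKM in wild type, values that were themselves what chose it.

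The 8 genes lie on chromosomes 1, 2, 4 and 9, and the listed genes next to them, 14 outside the set, lie 1596 to 261111 bp away. Of these neighbours 9 passed the filter and 1 was called, beside the 6.65% of all tested genes. It is the next listed gene to cyclase Zm00001d047340 on chromosome 9, 145244 bp away (126822784 to 126827738, minus strand). It had 1.09, 0.93 and 1.21 FPKM in mutant replicates 1, 2 and 3, against 2.78, 2.33 and 2.93 FPKM in wild-type replicates 1, 2 and 3. The genotypes did not overlap, beside 28.6% of all tested genes that lay lower in the mutant without overlap. Its log2 fold change was -0.83 (limma adjusted p = 0.0274). The call was lost without wild-type replicate 1 (limma adjusted p = 0.0681), without mutant replicate 1 (0.0992) and without mutant replicate 2 (0.117), and also with no filter, with the replicate block and with limma-voom after median-of-ratios scaling (adjusted p = 0.0623, 0.0627 and 0.0722).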

How the data were processed

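Per the labels' protocols, RNA was taken from frozen anthers with Trizol and made into libraries with an NEBNext Ultra RNA kit. The deposited values are FPKM, 1 per gene and library, which the authors had computed. The build was B73 RefGen_v4, and the tools listed are Bowtie2 2.2.3, HISAT2 2.1.0 and HTSeq 0.6.0, with no roles, per the submitters' processing notes. Strand setting, filters and annotation were not given in the sources used here. No listed gene overlapped any of the 8.

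Library totals, 16845656 to 17759978 reads, were taken as the value that single reads in genes counted over their whole span most often give. For each gene the smallest whole counted length that gave whole reads in all 6 libraries was then found (tolerance 0.0001 reads plus 3e-09 per read), which solved 99.98% of genes, and 1.8% of 1000 genes after their values had been perturbed. One read in a gene stands for 0.0156 to 0.0530 FPKM over the 8 genes. A read may stand for a single read or a pair.

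Fits used limma 3.58.1 in R 4.3.3 with an intensity trend, all 6 libraries and no covariate, and called genes at adjusted p under 0.05. Fold changes on the log2(FPKM + 1) scale understate low genes. Exact permutation tests used SciPy 1.17.1. The fit was tested on simulated reads. Other settings were upper-quartile and median-of-ratios scaling, no filter, a filter of FPKM 5, pseudocounts of 0.1 and 0.5, limma-voom, the replicate block, adjusted p under 0.01 and each library left out. The 8 genes, the gene lists and the tests were chosen with earlier results of these data known. Named genes are the 8 and, per step, the most alike gene. Protein and promoter sequences were not used here.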

Additional observations from a re-analysis of the deposited data

How the results depend on the processing

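Of the 8 genes, 0 were called in any of the 16 other settings in which they could be fitted, among them both limma-voom fits. An unadjusted p under 0.05 was reached by OPR7 under median-of-ratios scaling, upper-quartile scaling and voom with median-of-ratios scaling, by LOX10 with the replicate block and without wild-type replicate 1, and by ts1 without wild-type replicate 3. Over all tested genes, 1262 were called (361 higher and 901 lower in the mutant), against 748 with a filter of FPKM 5, 292 with no filter, 715 with the replicate block, 47 at adjusted p under 0.01 and 50 to 1373 with 1 library left out, where fewer libraries or other genes enter. The split was 661 higher and 410 lower with median-of-ratios scaling, 585 and 500 with upper-quartile scaling, and 679 and 387 with voom and median-of-ratios scaling, which shift all fold changes. Signs turned in genes that were called in no setting: with median-of-ratios scaling, voom with that scaling and upper-quartile scaling, Zm00001d029594 was at 0.10, 0.11 and 0.041, Zm00001d047340 at 0.074, 0.077 and 0.014, and OPR8 at 0.095, 0.10 and 0.033, and under the median-of-ratios settings Zm00001d034186 was at 0.031 and 0.043. With 1 library left out, log2 fold changes ran from -0.019 to 0.70 for ts1, -1.13 to -0.33 for LOX10, -0.27 to -0.0068 for Zm00001d034186, -0.31 to 0.029 for Zm00001d029594, -0.40 to -0.049 for Zm00001d047340, 0.20 to 0.40 for OPR7 and -0.29 to 0.019 for OPR8. The differences in share ran from 14.9 to 19.9 percentage points for ts1, 4.66 to 17.2 for Zm00001d034184, -0.70 to 1.98 for Zm00001d029594 and 3.22 to 12.2 for OPR7. The mutant minus wild-type difference in summed FPKM was 2.97 for the reductases, 15.1 after median-of-ratios scaling and 12.3 after upper-quartile scaling. For the synthases it was -0.071 and, with median-of-ratios scaling, 0.40, and for all 8 genes -6.68 and 21.1. For the cyclases it was -8.96 as deposited, 4.48 after median-of-ratios and 1.61 after upper-quartile scaling, and for the lipoxygenases -0.62, 1.16 and 0.85. With 1 library left out it ran from -16.1 to 0.69 for the cyclases, -2.87 to 2.37 for the lipoxygenases, -0.24 to 0.21 for the synthases, 1.34 to 5.28 for the reductases and -17.9 to 8.56 for all 8 genes. The cause was not tested where no construction is named. The replicate numbers were not taken as pairs, because the labels do not say what they mark. Deviations of libraries with the same number correlated at 0.012, -0.38 and -0.33, and the block moved no call among the 8 genes. Synthase Zm00001d034184 could be fitted only with no filter. With 8 to 20 reads in the mutant and 7 to 11 in wild type, counting error alone limits what it can show.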
